A study of Mus musculus with 6 samples.

Results

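The genes described here are 3 secreted Slit ligands (Slit1, Slit2 and Slit3) and 7 axon guidance receptors: the Slit receptors Robo1 and Robo2, and the netrin receptors Dcc, Unc5a, Unc5b, Unc5c and Unc5d. They were taken by symbol from the gene counts of 6 dorsal hippocampus libraries and make up 10 of the 55401 genes counted. All 10 passed the filter on low counts, which left 19969 genes to test, and their raw counts ran from 404 to 7729 read pairs per library. Both groups were wild-type (WT) littermates of the Ts65Dn mouse, 4 months old and described by the study as male, with 3 samples each. Each received a bilateral injection into the dorsal dentate gyrus (DG) of an antisense oligonucleotide (ASO) with 2′-O-methoxyethyl sugars and a phosphorothioate backbone. The Snhg11-ASO targets the long noncoding RNA Snhg11 and the Control-ASO carries the same nucleotides in scrambled order. Tissue was collected 3 days after the injection. The comparison asks how these ligands and receptors were expressed when Snhg11 was reduced. The injection was aimed at the DG but the RNA came from the whole dorsal hippocampus, so that fewer cells of a type and less RNA per cell cannot be told apart.

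Slit proteins bind Robo receptors, and this steers growing axons and migrating neurons away from the Slit source. Netrin attracts axons that carry Dcc, whereas Unc5 receptors, alone or together with Dcc, turn the response into repulsion. In the hippocampus these systems shape the paths of axons during development, and in the adult several of the receptors are found at synapses or guide migrating neurons.

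The libraries held 28951250 to 43997537 read pairs on genes. Snhg11 (ENSMUSG00000044349) was at 551, 436 and 209 CPM (read pairs scaled to a common library size) in replicates 1, 2 and 3 of the Control-ASO group, and replicates 1, 2 and 3 of the Snhg11-ASO group held 139, 65.4 and 69.4 CPM. The Snhg11-ASO samples thus all lay below the Control-ASO samples, with a log2 fold change of -2.13 (standard error, SE, 0.43) that did not pass adjustment over all genes (edgeR quasi-likelihood test, adjusted p = 0.395) and passed it with DESeq2 (adjusted p = 5.3e-05). Snhg11-ASO replicate 1 stood apart from the other 5 libraries, with a score of -49.8 on the first principal component against -6.4 to 22 for the rest, and results are given without it where it matters. With edgeR, 0 genes (0.0%) passed an adjusted p of 0.05 in either direction, while 1619 (8.11%) had an unadjusted p under 0.05, of which 885 (4.43% of all tested) were lower and 734 (3.68%) higher in Snhg11-ASO. DESeq2 called 256 genes.

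Accordingly, none of the 10 guidance genes passed the adjusted threshold with edgeR, where their smallest adjusted p was 0.442, and DESeq2 called 1 of them, Robo2. Fitted values were lower in Snhg11-ASO for 8 genes and higher for 2, Unc5a and Unc5b. At an unadjusted p under 0.05, 3 genes were lower (Slit3, Robo2 and Unc5d) and 0 were higher, against 4.43% and 3.68% of all genes tested. The groups did not overlap for Robo2 and Unc5d, which were lower in Snhg11-ASO, nor for Unc5b, which was higher, where 7.7% of all genes were lower and 7.73% higher without overlap. Slit3, Robo2 and Unc5d were also the 3 genes that were lower in all 3 pairs of same-numbered samples, as were 16.7% of all genes. The labels do not say that same-numbered samples are paired. The median log2 fold change was -0.15 over the 10 genes, -0.22 over the Slit ligands and -0.07 over the receptors, beside 0.01 over all genes tested.

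**Figure D1:**
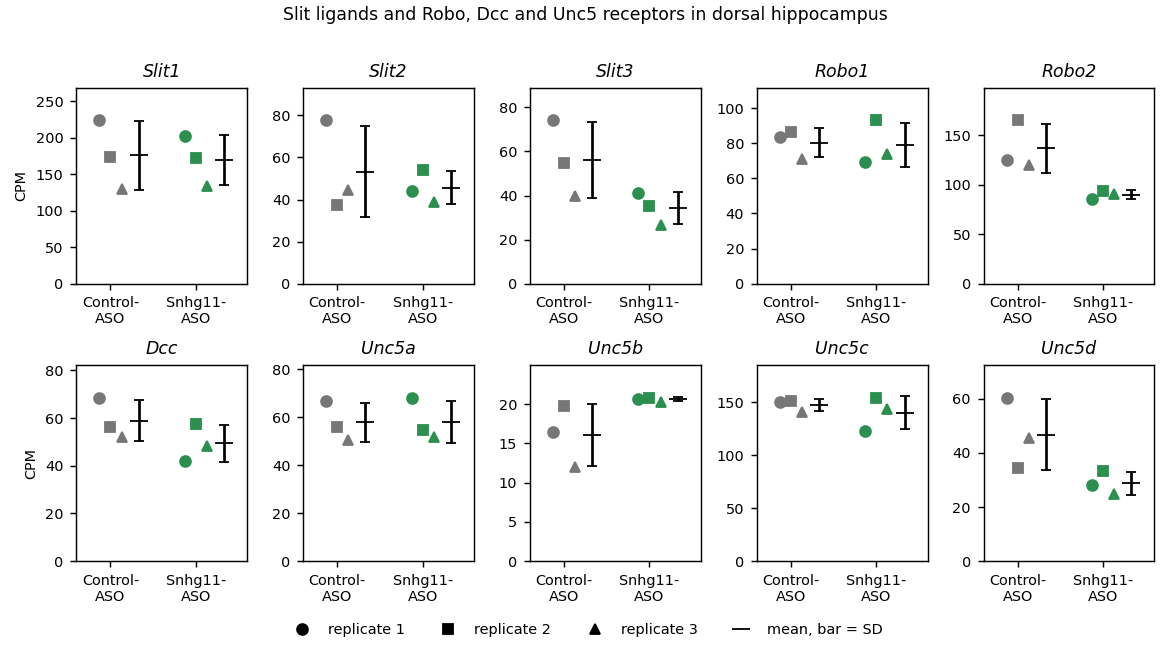
Expression (CPM, linear axes starting at 0) of the 3 Slit ligands and 7 receptors in each Control-ASO (grey) and Snhg11-ASO (green) sample, with the marker shape giving the replicate number and the bar the mean and SD (n = 3). Robo2 and Unc5d lay lower and Unc5b higher in Snhg11-ASO with no overlap between the groups, whereas the groups overlapped for the other 7 genes.

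Some sequences place these genes for the reader. Slit2 and Slit3 each carry a microRNA gene on their own strand outside their exons, Mir218-1 (chr5:48223942-48224051) and Mir218-2 (chr11:35616816-35616925), and both hairpins give the same mature miR-218-5p. It is shown because the pair of ligand genes shares it, with its seed, bases 2 to 8, in capitals:
mmu-miR-218-5p: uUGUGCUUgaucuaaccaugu
These libraries do not measure the mature form. Read pairs on the Mir218-2 gene numbered 13, 8 and 6 in Control-ASO replicates 1 to 3 and 16, 12 and 8 in the Snhg11-ASO libraries. These are raw counts, and the Snhg11-ASO libraries were deeper (38556524 to 43997537 read pairs on genes, against 28951250 to 34293344), so they do not compare levels. Read pairs on Mir218-1 numbered 1 to 7 and were too few to test.

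Of the 10 genes, 7 had an entry among the 32851 RefSeq promoters of the GRCm38.p6 build. The 250 bases before the start are shown for the neighbours Robo1 and Robo2, whose fold changes were unequal, and for Unc5b, which had the largest positive fold change of the 10, with each CG in capitals:
Robo1 promoter, chr16:72662899-72663148, plus strand: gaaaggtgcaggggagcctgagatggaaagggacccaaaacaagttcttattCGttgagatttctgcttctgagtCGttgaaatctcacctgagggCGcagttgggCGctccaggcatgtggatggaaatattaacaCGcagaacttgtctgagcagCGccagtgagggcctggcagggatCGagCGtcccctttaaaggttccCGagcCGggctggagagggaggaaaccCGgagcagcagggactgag
Robo2 promoter, chr16:74411826-74412075, minus strand: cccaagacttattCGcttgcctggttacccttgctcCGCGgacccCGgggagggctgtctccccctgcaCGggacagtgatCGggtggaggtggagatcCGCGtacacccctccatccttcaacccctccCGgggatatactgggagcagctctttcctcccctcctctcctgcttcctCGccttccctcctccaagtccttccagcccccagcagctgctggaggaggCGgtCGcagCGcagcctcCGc
Unc5b promoter, chr10:60831582-60831831, minus strand: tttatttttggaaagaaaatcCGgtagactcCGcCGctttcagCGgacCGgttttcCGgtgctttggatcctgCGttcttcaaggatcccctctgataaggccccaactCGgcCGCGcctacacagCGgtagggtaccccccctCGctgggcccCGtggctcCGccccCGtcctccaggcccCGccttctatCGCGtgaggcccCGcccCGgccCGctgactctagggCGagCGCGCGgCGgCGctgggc
These windows hold 11, 14 and 27 CG, where the median promoter holds 6, and 35.6%, 29.4% and 8.56% of promoters hold at least as many. The letters TATAAA were in none of the 3 windows on either strand, and were in 12.4% of all promoters. The Robo1 start shown lies within the longer GENCODE gene, and RefSeq lists other Robo2 starts farther upstream, outside the GENCODE gene.

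Among the ligands, Slit3 (ENSMUSG00000056427, GRCm38 chr11:35121224-35708507, plus strand) had the lowest fold change. It was at 74.2, 55 and 39.6 CPM in Control-ASO and at 41.0, 35.1 and 26.7 CPM in Snhg11-ASO. Its highest Snhg11-ASO value was just above its lowest Control-ASO value, so the groups overlapped, although within each same-numbered pair the Snhg11-ASO sample was lower, at 0.552, 0.639 and 0.674 of its Control-ASO partner. The Snhg11-ASO mean was 60.9% of the Control-ASO mean (34.3 ± 7.19 against 56.3 ± 17.4 CPM, SD, n = 3). The log2 fold change was -0.72 (SE 0.25, edgeR adjusted p = 0.562). Without Snhg11-ASO replicate 1 the log2 fold change was -0.86, and DESeq2 then called Slit3 (adjusted p = 0.0412), within a range of adjusted p of 0.0412 to 0.951 over 19 alternatives.

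Slit1 (ENSMUSG00000025020, chr19:41600257-41743665, minus strand), the Slit gene known for its expression largely within the nervous system, was at 224, 174 and 130 CPM in Control-ASO and at 203, 172 and 134 CPM in Snhg11-ASO. The groups spanned nearly the same range, and the log2 fold change was -0.06 (SE 0.23, edgeR adjusted p = 0.962). Slit2 (ENSMUSG00000031558, chr5:47983138-48307733, plus strand), the ligand best known for keeping commissural axons from recrossing the midline, was at 77.7, 37.3 and 44.6 CPM in Control-ASO and at 44.2, 54 and 38.7 CPM in Snhg11-ASO. Control-ASO replicate 1 was the high sample, and without it the log2 fold change moved from -0.22 (SE 0.28, edgeR adjusted p = 0.855) to 0.15 and the median of the Slit ligands from -0.22 to 0.14. The same sample had the highest summed level of 4 meningeal and fibroblast markers, at 78.7 CPM in a Control-ASO range of 20.3 to 78.7 and a Snhg11-ASO range of 28.5 to 35.9. It also had the highest sum of 10 choroid plexus markers, at 1980 CPM in a Control-ASO range of 42.2 to 1980 and a Snhg11-ASO range of 75.3 to 1340. The sums and Slit2 did not share an order over the other libraries. Control-ASO replicate 3 held 1280 CPM of choroid plexus and 70.1 CPM of meningeal and fibroblast markers, with Slit2 at 44.6 CPM. Snhg11-ASO replicate 1 held 1340 CPM of choroid plexus markers, with Slit2 at 44.2 CPM. Replicates 2 and 3 of that group held 133 and 75.3 CPM of them, with Slit2 at 54 and 38.7 CPM. Control-ASO replicate 2 was lowest for Slit2 and for either sum. No marker of either list was at 0, and their part in the Slit values was not tested.

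Since the sample-to-sample order of Slit1 and Slit3 was alike, their ratio within each sample was calculated after the values were seen, and it is given as a description. Slit3 CPM over Slit1 CPM was 0.332, 0.316 and 0.304 for Control-ASO samples and 0.202, 0.204 and 0.199 for Snhg11-ASO samples. Each group held to a narrow range and the ratios did not overlap, whereas Slit3 itself did. Slit1 was picked for its like order, and how many other gene pairs part the groups in this way was not counted.

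The Robo receptors, the transmembrane partners of the Slits, lie 846 kb apart on chromosome 16 and had unequal fold changes, although the difference between them was not tested. Robo2 (ENSMUSG00000052516, chr16:73891839-74411825, minus strand) was at 125, 165 and 120 CPM in Control-ASO and at 85.7, 94.0 and 90.0 CPM in Snhg11-ASO. All 3 Snhg11-ASO samples were below all 3 Control-ASO samples, which gave the smallest p that 3 against 3 samples allow (exact permutation test, two-sided, p = 0.1). The Snhg11-ASO mean was 65.9% of the Control mean (89.9 ± 4.16 against 136 ± 24.6 CPM, SD, n = 3). The log2 fold change was -0.60 (SE 0.14, edgeR adjusted p = 0.442). DESeq2 called it (adjusted p = 0.0214), as it did 163 genes (1.07% of its 15262 tested) on the lower side. Adjusted p ranged from 0.0214 to 0.951 over 19 alternatives, 2 of which, both with DESeq2, called Robo2, while its log2 fold change ranged from -0.69 to -0.34.

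Robo1 (ENSMUSG00000022883, chr16:72308306-73046095, plus strand) was at 83.7, 86.5 and 71.2 CPM in Control-ASO and at 69.5, 93.2 and 73.9 CPM in Snhg11-ASO. Its groups overlapped, with a log2 fold change of -0.03 (SE 0.14, edgeR adjusted p = 0.968). The ratio of Robo2 to Robo1 CPM, also calculated after the values were seen, was 1.49, 1.90 and 1.68 for Control-ASO samples and 1.23, 1.01 and 1.22 for Snhg11-ASO samples, without overlap. Robo2 thus had more reads than Robo1 in every library, by a smaller margin in the Snhg11-ASO samples.

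**Figure D2:**
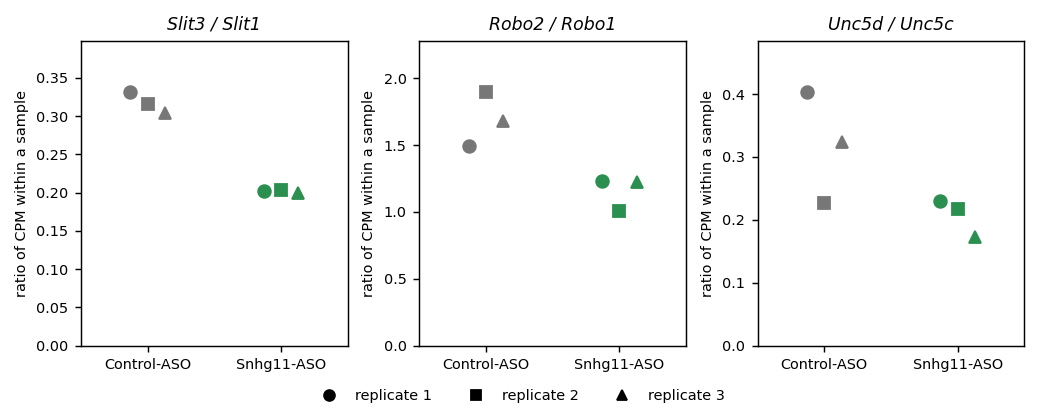
Ratio of CPM within each sample (linear axes starting at 0) for Slit3 over Slit1, Robo2 over Robo1 and Unc5d over Unc5c, with the marker shape giving the replicate number. The first and second ratios were lower in all Snhg11-ASO samples (0.199 to 0.204 against 0.304 to 0.332, and 1.01 to 1.23 against 1.49 to 1.90), whereas the third overlapped at 0.227 and 0.230.

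Among the Unc5 receptors, which mediate repulsion by netrin and carry a cytoplasmic death domain, none passed the adjusted threshold and Unc5d alone had an unadjusted p under 0.05 with all 6 samples. Unc5d (ENSMUSG00000063626, chr8:28646717-29219636, minus strand), which also binds the adhesion protein Flrt2, was at 60.4, 34.3 and 45.4 CPM in Control-ASO and at 28.3, 33.3 and 24.7 CPM in Snhg11-ASO. The groups did not overlap, but the highest Snhg11-ASO sample was just below the lowest Control-ASO sample. The mean was 61.6% of the Control mean (28.8 ± 4.34 against 46.7 ± 13.1 CPM, SD, n = 3). The log2 fold change was -0.70 (SE 0.22, edgeR adjusted p = 0.533). It was not called by any of the 19 alternatives, whose adjusted p ranged from 0.107 to 0.979. Flrt2 itself was at 75, 86.6 and 103 CPM in Control-ASO and at 51.0, 73.2 and 75.6 CPM in Snhg11-ASO, with groups that overlapped and a log2 fold change of -0.40 (SE 0.18, edgeR adjusted p = 0.637).

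Unc5b (ENSMUSG00000020099, chr10:60762593-60831581, minus strand), a receptor also known in blood vessels, had the fewest reads of the 10 genes, with 16.4, 19.8 and 12 CPM in Control-ASO and 20.7, 20.8 and 20.3 CPM in Snhg11-ASO. All Snhg11-ASO samples were higher, at nearly one level, whereas the Control-ASO samples were spread, and the log2 fold change given next was 0.18 without Control-ASO replicate 3 and 0.54 without Control-ASO replicate 2. The mean was 128% of the Control mean (20.6 ± 0.249 against 16.1 ± 3.90 CPM, SD, n = 3). The log2 fold change was 0.36 (SE 0.19, edgeR adjusted p = 0.672). The summed level of 4 endothelial markers, none at 0, was 91.4, 74.0 and 62.7 CPM in Control-ASO and 132, 73.1 and 69.0 CPM in Snhg11-ASO. The high sample was Snhg11-ASO replicate 1, and all 4 markers had higher fitted values. Their groups overlapped, and their part in the Unc5b values was not tested.

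Unc5c (ENSMUSG00000059921, chr3:141465216-141834924, plus strand), the netrin receptor with the most reads, was at 150, 151 and 141 CPM in Control-ASO and at 123, 154 and 143 CPM in Snhg11-ASO. The low sample was Snhg11-ASO replicate 1, and the log2 fold change of -0.07 (SE 0.10, edgeR adjusted p = 0.871) moved to 0.01 without it. Unc5a (ENSMUSG00000025876, chr13:54949411-55006018, plus strand) was at 66.8, 55.9 and 50.7 CPM in Control-ASO and at 68.1, 54.7 and 51.6 CPM in Snhg11-ASO. The groups covered the same range, with same-numbered pairs at ratios of 1.02, 0.979 and 1.02 and a log2 fold change of 0.01 (SE 0.15, edgeR adjusted p = 0.99). Without Snhg11-ASO replicate 1 it was -0.12.

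Dcc (ENSMUSG00000060534, chr18:71253634-72351069, minus strand), the receptor through which netrin attracts axons, was at 68.5, 56.2 and 52.1 CPM in Control-ASO and at 42.2, 57.6 and 48.4 CPM in Snhg11-ASO. Snhg11-ASO replicates 1 and 3 were below the whole Control-ASO range and replicate 2 within it. The mean was 83.8% of the Control mean (49.4 ± 7.76 against 58.9 ± 8.52 CPM, SD, n = 3), with a log2 fold change of -0.25 (SE 0.15, edgeR adjusted p = 0.71).

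Ligands and receptors did not part as groups. The mean log2 CPM of the 3 Slit ligands minus that of the 7 receptors was 0.67, 0.14 and 0.13 for Control-ASO samples and 0.42, 0.19 and -0.04 for Snhg11-ASO samples, so the groups overlapped. A lower value at an unadjusted p under 0.05 was found in 1 of 3 ligands and 2 of 7 receptors. The spread was within each class: the ligands ranged from -0.72 to -0.06 and the receptors from -0.70 to 0.36 on the log2 fold change scale.

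The levels of the genes against each other are given as CPM per kilobase of merged exons in the Control-ASO samples (mean ± SD, n = 3). Slit1 was highest at 29.7 ± 7.89, followed by Unc5a at 13.9 ± 1.97, Slit3 at 9.27 ± 2.86, Robo2 at 8.03 ± 1.45 and Unc5c at 7.69 ± 0.288. Unc5d at 5.07 ± 1.42, Robo1 at 4.87 ± 0.493 and Dcc at 4.47 ± 0.647 came next, and Unc5b at 2.57 ± 0.623 and Slit2 at 2.09 ± 0.846 were lowest. Neighbours in this order had ranges that did not overlap at 3 places, between Slit1 and Unc5a, between Unc5c and Unc5d, and between Dcc and Unc5b, and overlapped at all others. In Snhg11-ASO the per-length levels of Slit3 (5.65 ± 1.19) and Robo2 (5.29 ± 0.245) were below that of Unc5c (7.31 ± 0.807), which they exceeded on average in Control-ASO. The merged exons add up to 25433 bases for Slit2, 19135 for Unc5c, 16983 for Robo2, 16511 for Robo1 and 13171 for Dcc. For Unc5a they add up to 4168 bases. Each level per length, and with it this order, depends on which isoforms are counted.

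All 10 genes but Unc5a and Unc5b span more than 100 kb of genome, and fold changes in these libraries varied with genomic span. Of the 10, 7 genes span at least 200 kb (Slit2, Slit3, Robo1, Robo2, Dcc, Unc5c and Unc5d), and each of these had a negative log2 fold change. Among all 986 tested genes of at least 200 kb, 736 (74.6%) had one as well, their median was -0.17, and 241 (24.4%) were lower at an unadjusted p under 0.05, against 3 of these 7. The median was -0.12 for genes of 200 to 400 kb, -0.23 for those of 400 to 800 kb and -0.45 for those above 800 kb. Slit3, Robo2 and Unc5d, which span 587, 520 and 573 kb, were below the 25th percentile of their class, which was -0.45, whereas Robo1, at 738 kb, was above its 75th percentile of -0.05. For Robo2 this holds for its GENCODE span only. Measured from the RefSeq starts farther upstream, Robo2 would fall in the class above 800 kb. The 25th percentile there was -0.70, and Robo2, at -0.60, was not below it.

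When the trend with span was removed by an offset in the fit, the log2 fold changes were -0.44 for Slit3, -0.36 for Robo2 and -0.43 for Unc5d, and 0 of the 10 genes had an unadjusted p under 0.05 (edgeR adjusted p = 0.711, 0.664 and 0.667). With the replicate number added as a block to that offset, Slit3 and Robo2 were lower and Robo1 was higher at an unadjusted p under 0.05, and Unc5d was not among them. The share of all genes at that threshold was not counted in either fit. With the offset alone, Robo1 changed its sign to 0.28, Dcc to 0.14 and Unc5c to 0.12, and the median of the receptors changed from -0.07 to 0.12. Unc5b, which spans 69.0 kb, kept a log2 fold change of 0.34. The offset thus left Robo2 below and Robo1 above the median of the receptors as before, whereas the sign of that median changed. It used the GENCODE span of each gene, which for Robo2 leaves out the RefSeq starts farther upstream.

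**Figure D3:**
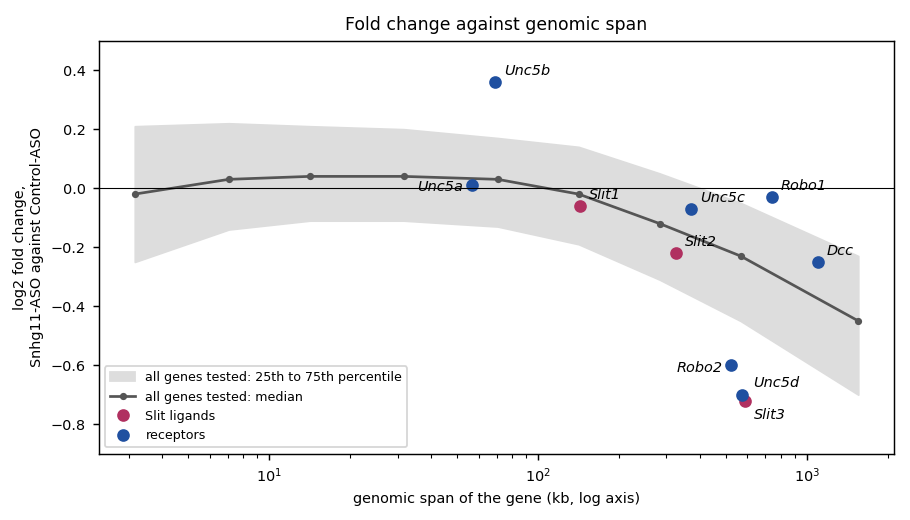
Log2 fold change (Snhg11-ASO against Control-ASO) against genomic span in kb (log axis) for the Slit ligands (red) and receptors (blue), over the median (line) and the 25th to 75th percentiles (grey) of all 19969 genes in bins of span. Slit3, Robo2 and Unc5d lie below the grey band, and Unc5b and Robo1 above it, with Robo2 drawn at its GENCODE span.

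**Figure D4:**
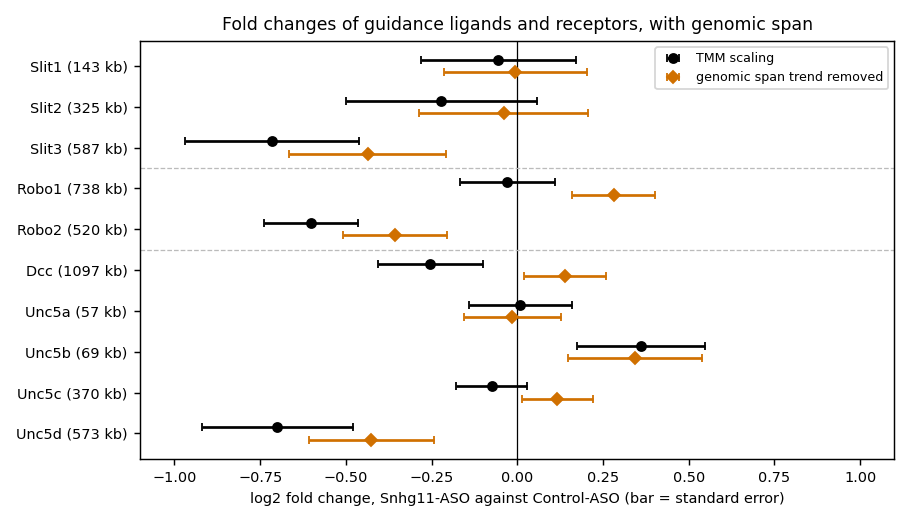
Log2 fold change with its SE for each gene (n = 3 per group) with libraries scaled by the trimmed mean of M values (TMM, black circles) and with the trend with genomic span removed (orange diamonds). Slit3, Robo2 and Unc5d stayed below 0 under both, at -0.72 and -0.44, -0.60 and -0.36, and -0.70 and -0.43, whereas Robo1, Dcc and Unc5c moved from below to above 0.

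Of the cell type marker lists, 3 had summed levels that did not overlap between the groups, each of them lower in Snhg11-ASO, and no single marker passed the adjusted threshold. Of all single genes tested, 7.7% were lower without overlap, and the share for sums of genes was not calculated. The summed level of 7 interneuron markers was 419 to 465 CPM in Control-ASO and 349 to 397 CPM in Snhg11-ASO, with 7 of 7 fitted lower and 2 of them at an unadjusted p under 0.05. The sum of 5 neocortical markers was 99.3 to 146 CPM against 83.9 to 97.3 CPM, with 5 of 5 lower and 1 of them at an unadjusted p under 0.05, and that of 2 oligodendrocyte precursor markers was 72.5 to 85.4 CPM against 59.8 to 71.5 CPM, with 2 of 2 lower and 0 at that threshold. No marker in these lists was at 0. All 10 choroid plexus markers and all 4 meningeal and fibroblast markers were also fitted lower, with sums that overlapped. All 4 endothelial markers were fitted higher, and the lists not named here held markers in both directions. Other lists went the other way with groups that overlapped, with 4 of 4 CA3 pyramidal markers (80.3 to 112 CPM against 93.1 to 120 CPM) and 5 of 5 oligodendrocyte markers (1430 to 2640 CPM against 1580 to 3280 CPM) fitted higher. The part of these markers in the values of Slit3, Robo2 and Unc5d was not tested. The 7 dentate granule cell markers had a sum of 218 to 298 CPM in Control-ASO and 261 to 336 CPM in Snhg11-ASO. All 7 were detected, but so were all markers of the other lists, so detection does not single out the labelled tissue.

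The other genes of the Slit-Robo and netrin pathways were taken from a list of 56, all of which were tested. With edgeR 0 of them passed the adjusted threshold (smallest adjusted p = 0.507). At an unadjusted p under 0.05, 3 were lower and 3 higher, near the shares of 4.43% and 3.68% over all genes tested. The median log2 fold change was 0.05, against 0.01 for all genes. With the replicate number as a block, 10 rather than 6 had an unadjusted p under 0.05, and the share of all genes in that fit was not counted. Sdc4 and Rhoa were then no longer among them, and Ntn5, Flrt2, Robo3, Sdc1 and Vasp were among those that entered. Without Control-ASO replicate 3, 1 gene, Pak1, had an unadjusted p under 0.05. The fitted values were lower for 21 and higher for 35 of the 56, and lower for 9653 and higher for 10316 of all genes tested.

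The other ligands held no gene with an unadjusted p under 0.05 among 11 without the replicate block, and Flrt2 and Ntn5 with it, both lower in all 3 same-numbered pairs (at 0.680, 0.845 and 0.737 of the Control-ASO partner for Flrt2 and 0.718, 0.708 and 0.449 for Ntn5). Ntn1, the netrin that the Dcc and Unc5 receptors bind, was at 5.44, 6.27 and 5.28 CPM in Control-ASO and at 5.74, 6.84 and 5.84 CPM in Snhg11-ASO, with groups that overlapped and a log2 fold change of 0.12 (SE 0.17, edgeR adjusted p = 0.875). The other netrins Ntn3, Ntn4 and Ntn5 were at 0.02, -0.29 and -0.74 on the log2 fold change scale, and the netrin antagonist Draxin, with under 1 CPM in every library, at 0.15. The neogenin ligands Rgma and Rgmb were at 0.05 and 0.10, the secreted glycoproteins Nell1 and Nell2 at -0.36 (-0.01 with the span offset) and -0.05, and the adhesion protein Flrt3 at -0.11. The groups overlapped for each of these 11 ligands.

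Of 11 other receptors and co-receptors, Dscam was lower and Gpc1 and Sdc4 were higher at an unadjusted p under 0.05. Dscam, an adhesion molecule that also binds netrin, was at 72.7, 64.9 and 68.9 CPM in Control-ASO and at 61.2, 57.9 and 43.5 CPM in Snhg11-ASO, without overlap and with a log2 fold change of -0.35 (SE 0.14, edgeR adjusted p = 0.598). Dscam spans 580 kb, and with the span offset its log2 fold change was -0.08 and no longer had an unadjusted p under 0.05. Gpc1, a heparan sulfate proteoglycan that binds Slits, was at 81.4, 104 and 74.6 CPM and at 131, 127 and 103 CPM, where the lowest Snhg11-ASO sample was within the Control-ASO range (log2 fold change 0.47, SE 0.15, edgeR adjusted p = 0.543). Sdc4, another such proteoglycan, was at 75.7, 86.0 and 88.3 CPM and at 356, 100 and 107 CPM. The high sample was Snhg11-ASO replicate 1, and the log2 fold change of 1.17 (SE 0.48, edgeR adjusted p = 0.603) was 0.31 without it.

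The remaining members of the Robo family, Robo3 and the endothelial Robo4, overlapped between the groups. Robo3 was at 15.7, 48.5 and 34.0 CPM in Control-ASO and at 30.8, 59.1 and 49.7 CPM in Snhg11-ASO, and Robo4 at 4.59, 2.56 and 2.37 CPM and at 9.55, 2.49 and 3.05 CPM. Within same-numbered pairs Robo3 was higher in Snhg11-ASO each time, at ratios of 1.96, 1.22 and 1.46, and its log2 fold change of 0.51 had an unadjusted p under 0.05 with the replicate block (0.60, edgeR adjusted p = 0.484) and not without it. The log2 fold change of Robo4 was 0.66 (SE 0.56, edgeR adjusted p = 0.776) and turned to -0.19 without Snhg11-ASO replicate 1. Neo1, the Dcc relative neogenin, was at 0.05 on the log2 fold change scale, Dscaml1 at -0.22, Dag1 at 0.13, and the syndecans Sdc1, Sdc2 and Sdc3 at 1.15, -0.24 and 0.05. The value of Sdc1 rested on Snhg11-ASO replicate 1 and was 0.24 without it. Among the intracellular genes, 2 were lower and 1 higher at an unadjusted p under 0.05. Pak1, a kinase downstream of Rac and Cdc42, and Evl, an actin regulator of the Ena/VASP family, were at log2 fold changes of -0.38 (SE 0.11) and -0.39 (SE 0.13), and the GTPase Rhoa was at 0.29 (SE 0.11), with edgeR adjusted p of 0.507, 0.536 and 0.593. Pak1 was at 204, 218 and 249 CPM in Control-ASO and at 177, 183 and 157 CPM in Snhg11-ASO, without overlap. With all 6 samples the 3 heparan sulfate synthesis genes held no gene at an unadjusted p under 0.05, and neither did the 6 genes of receptor trafficking, cleavage and cell death. Without Snhg11-ASO replicate 1, Hs6st1, a heparan sulfate sulfotransferase, moved from 0.19 to -0.22, and Ext1, a heparan sulfate polymerase, from -0.22 to -0.27. The death-associated kinase Dapk1 likewise moved from -0.13 to -0.60. Each then had an unadjusted p under 0.05, and the share of all genes in that fit was not counted. Of 19 alternatives, 1 called Dapk1 (adjusted p = 0.0201), namely DESeq2 without Snhg11-ASO replicate 1, which called 339 genes. Vasp and these genes were named after their values were seen.

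**Figure D5:**
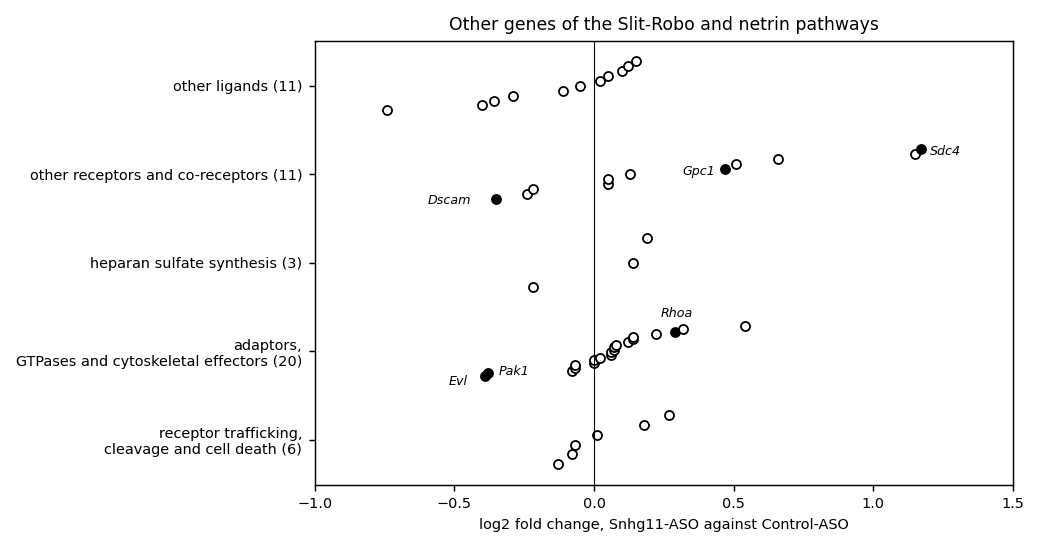
Log2 fold change (Snhg11-ASO against Control-ASO, x axis) of other genes of the Slit-Robo and netrin pathways by role (y axis, number of genes in brackets, with 1 role of 5 genes not drawn), with filled and named points for an unadjusted p under 0.05. Most points lie near 0, with Dscam, Pak1 and Evl on the lower side and Gpc1, Rhoa and Sdc4 on the higher side.

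For the gene with the most reads in each role, the genes whose log2 CPM followed it most closely over the 6 samples were taken from 13566 genes with a mean of at least 100 counts. These were Gm7694, Dmwd and Tnrc18 for Slit1 (Pearson r = 0.99, 0.987 and 0.979), Fmn2, AC127249.1 and Pitpnc1 for Robo2 (0.981, 0.98 and 0.977), and 4930451G09Rik, 1110051M20Rik and Prrt1 for Unc5c (0.996, 0.993 and 0.993). They are the highest of 13566 correlations over 6 samples, and both genes of a pair were read from the same libraries. Fmn2 was at 67.1, 73.7 and 69.1 CPM in Control-ASO and at 61.1, 63.4 and 61.5 CPM in Snhg11-ASO, without overlap, as for Robo2, and with a log2 fold change of -0.18. Since Fmn2 was picked for following Robo2 over these samples, this is not a separate result.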

How the data were processed

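RNA from dorsal hippocampus was made into ribo-depleted, stranded TruSeq libraries and sequenced as read pairs. The authors deposited raw counts per gene for each of the 6 samples, written by STAR (version 2.5.2a, GRCm38/mm10, per the submitters' processing notes). The study's methods name Rsubread for counting and DESeq2 for testing, with 1 Snhg11-ASO sample, not named, removed; all 6 samples were kept here. The annotation release is not given in the sources used here. The reverse-strand count column was used (96.2% to 96.8% of stranded pairs), and the 4 summary lines, which hold 43.5% to 51.4% of pairs, were left out. Symbols came from GENCODE M21 (55141 of 55401 genes matched). Reads shared between overlapping genes are not counted by STAR, and Slit1 and Dcc overlap no other gene.

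Counts were tested with edgeR 4.0.16 in R 4.3.3 (TMM scaling, filterByExpr with a minimum count of 10, quasi-likelihood test, group as the only term, Benjamini-Hochberg adjustment over 19969 genes). CPM are TMM-scaled, and log2 CPM add a prior count of 2. The common biological coefficient of variation was 0.266 and the normalization factors were 0.982 to 1.02. Alternatives were DESeq2 1.42.0, its size factors, both strands, other count filters, offsets for genomic span or GC content, a replicate block and leaving out each library. The script was tested on simulated counts. The main fit did not pair samples. Replicate numbers served as a pairing only in the fits with the replicate block and in the values given for same-numbered pairs. Same-numbered samples deviated together (r = 0.297, 0.179 and 0.103), but other matchings of the samples were not compared. Neither the labels nor the methods say what the numbers share. The series describes 3 hippocampi per group, and p-values measure the spread between these samples.

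The members, the gene lists and the tests were chosen with earlier results of these data known. Named were all members, Snhg11, the pathway ligands, receptors and co-receptors, other pathway genes with an unadjusted p under 0.05, and the 3 genes most correlated with the most-read member of each role. One role of the pathway list is counted in the totals but not reported here on its own.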

Additional observations from a re-analysis of the deposited data

Results flagged for a closer look

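Read pairs on the strand opposite to Dcc, which the comparisons do not use, were more frequent in Snhg11-ASO, with a mean of 0.153 CPM against 0.0821 CPM in Control-ASO. The Control-ASO samples held 2, 3 and 3 of these pairs and the Snhg11-ASO samples 5, 7 and 7, so each library held only a few such pairs, and the difference was not tested. Of 17586 genes with any opposite-strand pair, 905 (5.15%) likewise had all Snhg11-ASO samples above all Control-ASO samples. No gene is annotated opposite to Dcc in GENCODE M21, and such pairs made up 0.228% of the pairs on Dcc and 0.0624% to 1.02% over the 10 guidance genes.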

How the results depend on the processing

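With 3 samples per group and a smallest adjusted p of 0.237 in edgeR, single calls rested on the tool. Of 418 values of 22 of the named genes under 19 alternatives, 379 kept their direction and side of the threshold, 31 changed sign and 8 newly passed it. DESeq2 called 256 genes, or 339, 275 and 213 without Snhg11-ASO replicate 1, 2 or 3, and edgeR called 0 to 2 when leaving out 1 library. DESeq2 called 1 guidance gene (Robo2), and 0 to 2 when leaving out 1 Snhg11-ASO library, the 2 being Robo2 and Slit3 without replicate 1. The number of guidance genes at an unadjusted p under 0.05, 3 with all samples, was 0 with offsets for genomic span, 3 with the replicate block added to them (Slit3 and Robo2 lower, Robo1 higher), and 1 to 3 when leaving out 1 library, with 1 (Robo2) without Snhg11-ASO replicate 3. The genes were not always the same: without Control-ASO replicate 2 they were Robo2 and Unc5d, lower, and Unc5b, higher. The number of pathway genes, 6 with all samples, was 10 with the replicate block, which lost Sdc4 and Rhoa, and 1 to 10 when leaving out 1 library, with 1 without Control-ASO replicate 3 and 10 with DESeq2 without Snhg11-ASO replicate 1. The median of the Slit ligands ranged from -0.42 to 0.14 when leaving out 1 library, with 0.14 without Control-ASO replicate 1, and that of the receptors was 0.12 with span offsets and 0.11 with the replicate block added. The cause of these shifts was not tested. The share of all genes at an unadjusted p under 0.05 was counted in the main fit only. The replicate block, as a pairing of same-numbered samples, gave 0 genes at an adjusted p under 0.05, as the fit without it.

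Sign changes concerned genes with a small fold change or, for Robo4, a single high library. With span offsets Robo1 was at 0.28, Dcc at 0.14, Unc5c at 0.12 and Unc5a at -0.01. With the replicate block added to them, Robo1 was at 0.28, Dcc at 0.14, Unc5c at 0.11, Unc5a at -0.01, and Slit1 and Slit2 at 0.01. Without a filter on low counts Unc5a was at -0.0024. Leaving out single libraries, Slit1 ranged from -0.24 to 0.14, Robo1 from -0.17 to 0.06, Unc5c from -0.15 to 0.01 and Robo4 from -0.20 to 1.01. Slit1 reached 0.14 (Control-ASO replicate 1) and 0.09 (Snhg11-ASO replicate 3, also with DESeq2), and Slit2 reached 0.15 (Control-ASO replicate 1). Robo1 reached 0.03 (Control-ASO replicate 2), 0.06 (Snhg11-ASO replicate 1, 0.05 with DESeq2) and 0.02 (Snhg11-ASO replicate 3, also with DESeq2). Unc5a reached -0.01, -0.08 and -0.12 without Control-ASO replicate 2, Control-ASO replicate 3 and Snhg11-ASO replicate 1 (-0.12 also with DESeq2), and Unc5c 0.01 without Snhg11-ASO replicate 1 (also with DESeq2). Neo1 reached -0.03 without Control-ASO replicate 2 and -0.11 without Snhg11-ASO replicate 2 (also with DESeq2), and Robo4 -0.19 without Snhg11-ASO replicate 1 (-0.20 with DESeq2).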
